A study of Mus musculus with 9 samples.

Results

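The superoxide dismutases, catalase and peroxidases are enzymes that remove superoxide and peroxides, and they were followed by gene symbol in newborn mouse ventricular zone cells that differ in Prdm16 genotype. The set names 10 genes: Sod1, Sod2, Sod3, Cat, Gpx1, Gpx3, Gpx4, Gpx8, Prdx3 and Prdx6. Of these, 9 of 10 had a probe set with that single symbol, among 19938 genes measured in this way, and Prdx6 had none. The genes were chosen by name, with no cut on their values, but earlier results of these data were known. Where a gene had several probe sets, the one with the highest mean was taken, which applied to Gpx4 alone.

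RNA was measured on 9 Affymetrix Mouse Gene ST 1.0 arrays, 3 per genotype, from uncultured ventricular zone of newborn C57BL/Ka mice. The genotypes were Prdm16+/+ (WT), Prdm16LacZ/+ (HET), with the LacZ allele in place of 1 of its 2 wild-type alleles, and Prdm16LacZ/LacZ (KO), with 0 wild-type alleles. No group was treated. The allele is present in every cell of the animal, so the groups do not isolate its loss in the ventricular zone, and the labels do not say whether same-genotype arrays hold separate animals, litters or pools. The spread behind the p-values is that between arrays and may be partly or wholly technical.

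Superoxide dismutases turn superoxide, a by-product of respiration, into hydrogen peroxide and oxygen. Catalase, which sits in peroxisomes, splits hydrogen peroxide, while glutathione peroxidases and peroxiredoxins reduce peroxides at the expense of glutathione or thioredoxin. Several glutathione peroxidases carry selenocysteine at the active site, so their synthesis needs selenium. Neural progenitors are known to respond to reactive oxygen species, and the study itself is known to have examined oxidative stress in Prdm16-deficient stem cells.

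All values are deposited log2 RMA values, in which a difference of 1 is a doubling. Array lower quartiles lay between 4.53 and 4.68 and their upper quartiles between 7.26 and 7.38. Prdm16, the targeted gene, lay at 7.62, 7.57 and 7.23 in WT, 6.995, 7.34 and 6.998 in HET, and 5.69, 6.41 and 6.17 in KO. Every KO array lay below every other array, while HET replicate 2 lay above WT replicate 3. Radial glia markers were present in the tissue, with Sox2, Vim and Fabp7, 3 of 8 on the list, above the upper quartile on every array. So were neuronal markers, with 5 of 6 above it. The dissected zone thus held RNA of neurons as well as progenitors. A lower value in such tissue cannot separate fewer cells of a type from less RNA per cell.

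The promoters of 3 members are shown because they span the behaviour of the set: Sod1 had the smallest SD over the arrays, Cat was the member whose KO arrays all lay below the WT arrays, and Gpx1 had the largest SD. The sequences are the 250 bases before the annotated start, from RefSeq on GRCm38.p6, 5′ to 3′ on the gene's strand. They lie at chr16:90220512-90220761 (plus strand), chr2:103485154-103485403 (minus strand) and chr9:108338830-108339079 (plus strand). Capitals mark matches, on either strand, to the GC box GGGCGG, the CCAAT box CCAAT and the NRF2 core TGACNNNGC, which overlap each other where the capitals run on.
Sod1: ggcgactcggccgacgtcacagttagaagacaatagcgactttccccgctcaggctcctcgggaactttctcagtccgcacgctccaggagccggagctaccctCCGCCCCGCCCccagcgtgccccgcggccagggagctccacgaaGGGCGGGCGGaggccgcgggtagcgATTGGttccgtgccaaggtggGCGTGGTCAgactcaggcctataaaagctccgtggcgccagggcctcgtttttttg
Cat: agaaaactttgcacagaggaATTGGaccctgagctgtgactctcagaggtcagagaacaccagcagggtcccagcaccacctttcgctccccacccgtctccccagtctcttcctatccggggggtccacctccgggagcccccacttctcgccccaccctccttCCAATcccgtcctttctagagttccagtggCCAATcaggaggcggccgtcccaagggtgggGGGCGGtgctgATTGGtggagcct
Gpx1: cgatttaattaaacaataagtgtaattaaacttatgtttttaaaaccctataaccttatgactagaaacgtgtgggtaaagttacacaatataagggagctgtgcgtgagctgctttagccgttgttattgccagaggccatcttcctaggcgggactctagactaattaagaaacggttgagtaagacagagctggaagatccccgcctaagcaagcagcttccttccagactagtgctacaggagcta

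Promoter windows were found for 8 of the 10 members, with none for Sod3 or Prdx6. The Sod1 window held 4 GC boxes and the only match among these members to the NRF2 core, 56 bases before the start, and a TATAAA match at 37 bases. The Cat window held 4 CCAAT boxes and 1 GC box, and the Gpx1 window none of these 3 motifs. These members have 11 windows, since Gpx4 has several. Its windows that begin at 80053315 and 80053409 overlap, so the GC and CCAAT boxes in their shared bases enter the counts of each. A GC box was in 8 of the 11 windows, from 6 of 8 members, and in 32.7% of all 32851 windows of this length. A CCAAT box was in 7 of 11, from 5 of 8 members, and in 33.8% of all windows. The NRF2 core was in 1 of 11 and 10.2% of all, TATAAA in 2 of 11 (Sod1 and Prdx3) and 12.4%, and the FOXO core GTAAACA in 0 of 11 and 3.17%. A match is a description of letters and no test of binding.

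No member of the set passed the test for a change with the loss of Prdm16 alleles. In KO against WT, 0 of 9 members passed limma with Benjamini-Hochberg adjustment over all genes (adjusted p under 0.05), beside 0.451% of all genes tested, and 0 of 9 had an unadjusted p under 0.05, beside 6.15%. The members' changes ran from -0.14 (Cat) to 0.17 (Gpx1) on the log2 scale, with a median of 0.055, against a median of 0.0064 over all genes. In HET against WT 0 of 9 passed, as did 0% of all genes, and 1 of 9, Sod2, had an unadjusted p under 0.05, beside 4.05%. In KO against HET 0 of 9 passed, beside 0.206%, and 0 of 9 had an unadjusted p under 0.05, beside 6.16%. The comparisons share arrays, so they are not independent of each other.

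**Figure D1:**
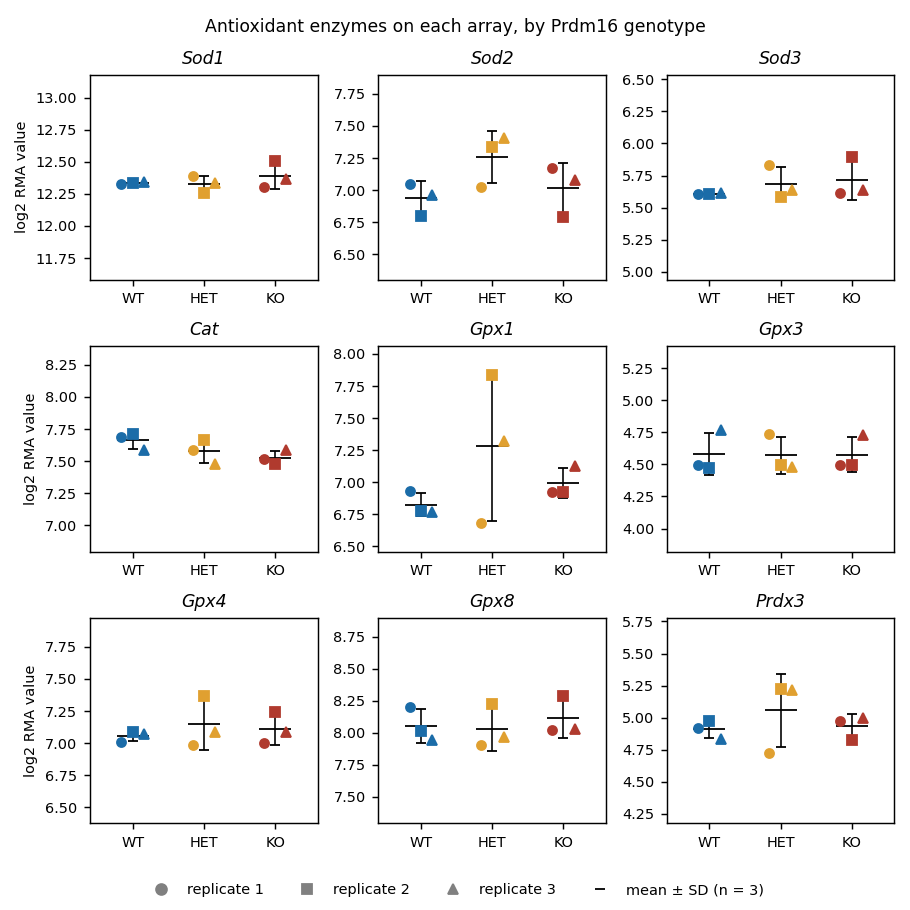
Log2 RMA value of each of the 9 measured enzymes (vertical axes, each spanning 1.6 log2 units) on the WT, HET and KO arrays; symbols give the replicate and black bars the mean ± SD of 3 arrays. KO and WT overlap in all panels but those of Sod3 and Cat, and Gpx1 spreads from 6.68 to 7.84 within HET.

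Sod1 encodes the copper and zinc superoxide dismutase of the cytosol. It lay at 12.33, 12.34 and 12.34 in WT, 12.39, 12.25 and 12.33 in HET, and 12.30, 12.51 and 12.36 in KO. KO replicate 2 was the highest array and the groups overlapped. KO differed from WT by 0.055 (SE 0.078, n = 3 per genotype, limma adjusted p = 1), with a 95% interval from 0.921-fold to 1.17-fold. Its SD over the 9 arrays, 0.069, was higher than that of only 9.56% of genes, so Sod1 was among the steadiest transcripts. These values are close to the highest of each array, which lay between 13.23 and 13.50.

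Sod2 encodes the manganese enzyme of the mitochondrial matrix. It lay at 7.05, 6.80 and 6.97 in WT, 7.03, 7.33 and 7.41 in HET, and 7.18, 6.79 and 7.08 in KO. HET replicates 2 and 3 lay above every WT and KO array, while HET replicate 1 lay among them. The HET against WT change was 0.32 (SE 0.13, unadjusted p = 0.032, limma adjusted p = 0.99), or 1.25-fold. KO differed from WT by 0.077 (SE 0.13), with an interval from 0.865-fold to 1.29-fold, and KO lay 0.24 below HET (SE 0.13, unadjusted p = 0.089, limma adjusted p = 0.83).

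Sod3 encodes the secreted superoxide dismutase of the extracellular space. It lay at 5.61 in each of the 3 WT arrays, at 5.83, 5.58 and 5.64 in HET, and at 5.62, 5.89 and 5.64 in KO. All KO arrays lay above all WT arrays, but the gap between the nearest was 0.0067, and KO replicate 2 carried most of the difference. The KO against WT change was 0.11 (SE 0.097, limma adjusted p = 0.99), and 0.019 without KO replicate 2. The WT SD of 0.0015 was far under the HET SD of 0.13 and the KO SD of 0.15.

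Cat encodes catalase. It lay at 7.69, 7.71 and 7.59 in WT, 7.59, 7.67 and 7.48 in HET, and 7.52, 7.48 and 7.59 in KO. All KO arrays lay below all WT arrays, by a gap of 0.0025 between the nearest, and HET overlapped both. The means stepped down from 7.66 ± 0.067 in WT to 7.58 ± 0.093 in HET and 7.53 ± 0.055 in KO (SD, n = 3). The KO against WT change of -0.14 (SE 0.079) had the smallest unadjusted p of the set, 0.11, and did not pass (limma adjusted p = 0.92). Its interval ran from 0.806-fold to 1.03-fold. Cat and Sod3 were thus the 2 of 9 members whose KO and WT arrays did not overlap, beside 9.98% of all genes; 1 was lower, beside 4.34%, and 1 higher, beside 5.63%. In HET against WT and KO against HET the count was 0 of 9, beside 6.85% and 6.54%.

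Gpx1 encodes the selenium-dependent glutathione peroxidase of cytosol and mitochondria. It lay at 6.93, 6.78 and 6.77 in WT, 6.68, 7.84 and 7.32 in HET, and 6.93, 6.92 and 7.13 in KO. The HET arrays held both the lowest and the highest values of all 9, a 2.23-fold range within 1 genotype. Its SD over the arrays, 0.36, exceeded that of 98.4% of genes. The HET against WT change was 0.45 (SE 0.22, limma adjusted p = 0.99), and it was 0.75 without HET replicate 1 (adjusted p = 0.13) and 0.18 without HET replicate 2. The KO against WT change of 0.17 (SE 0.22) had the widest interval of the set, from 0.795-fold to 1.58-fold, so a moderate change of Gpx1 was not detectable with these arrays.

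Gpx3 encodes the secreted glutathione peroxidase of plasma. It lay at 4.495, 4.48 and 4.77 in WT, 4.74, 4.495 and 4.48 in HET, and 4.495, 4.495 and 4.73 in KO. It was below the array's lower quartile on 6 of 9 arrays, so these values may be background. The value 4.495 was identical on 4 arrays of the 3 genotypes. Such repeats were common in the table: 12543 genes (62.9%) had a value shared exactly by at least 2 arrays, as had 5 of the 9 members. KO differed from WT by -0.0050 (SE 0.11).

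Gpx4 encodes the glutathione peroxidase that reduces lipid peroxides in membranes. It lay at 7.01, 7.09 and 7.07 in WT, 6.98, 7.37 and 7.09 in HET, and 6.997, 7.24 and 7.09 in KO. HET replicate 2 and KO replicate 2 were the highest arrays, and the groups overlapped. Between KO and WT the change was 0.054 (SE 0.11, limma adjusted p = 1), with an interval from 0.881-fold to 1.22-fold. A second probe set of Gpx4 gave 0.070 (SE 0.11), with the same arrays highest, at 7.21 and 7.05.

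Gpx8 encodes a peroxidase of the endoplasmic reticulum that lacks selenocysteine. It lay at 8.20, 8.02 and 7.95 in WT, 7.90, 8.23 and 7.97 in HET, and 8.02, 8.29 and 8.03 in KO. No genotype stood apart, and the SDs of 0.13 to 0.17 were alike in the 3 groups. Between KO and WT the change was 0.056 (SE 0.11, limma adjusted p = 1), with an interval from 0.872-fold to 1.24-fold.

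Prdx3 encodes the thioredoxin-dependent peroxidase of mitochondria. It lay at 4.92, 4.97 and 4.83 in WT, 4.73, 5.23 and 5.22 in HET, and 4.97, 4.83 and 5.00 in KO. As for Gpx1, HET held the lowest array, replicate 1, and the highest, replicate 2. KO lay 0.025 above WT (SE 0.13) and HET 0.15 above WT (SE 0.13, limma adjusted p = 0.99). The HET against WT change was 0.31 without HET replicate 1, 0.064 without HET replicate 2 and 0.068 without HET replicate 3. Prdx3 and Gpx3 fell to a filter that left out the dimmest 33.3% of genes, and the other 7 members passed it.

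**Figure D2:**
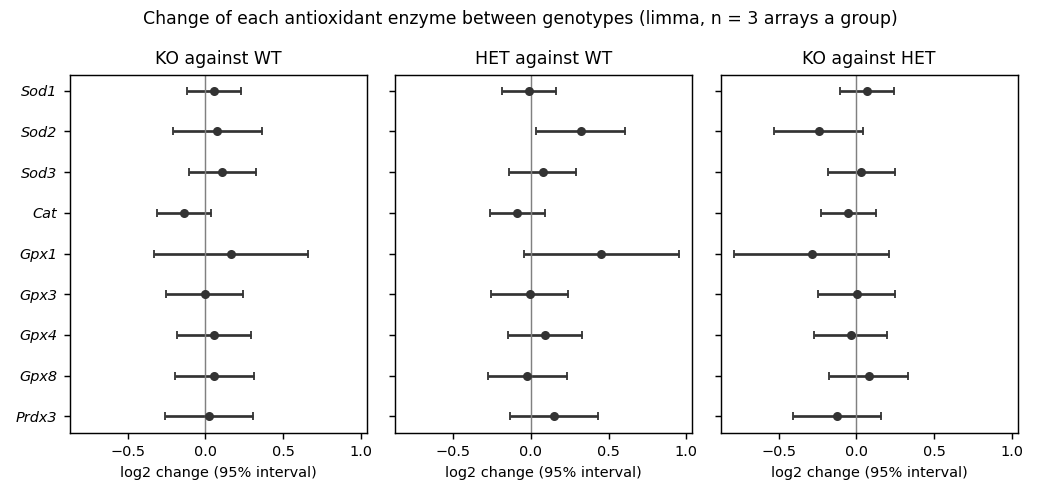
Log2 change of each of the 9 enzymes (points) with its 95% interval from limma (bars) in KO against WT, HET against WT and KO against HET, 3 arrays a group. Most intervals include 0; that of Sod2 in HET against WT does not, and Gpx1 has the widest.

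The members did not move as a block across the arrays. Set against its own mean over the 9 arrays, Gpx1 lay 0.80 higher on HET replicate 2, Sod2 and Prdx3 0.27 and 0.26 higher, and Gpx4 and Gpx8 0.26 and 0.16. Sod2, Gpx1 and Prdx3 were also high on HET replicate 3, by 0.34, 0.29 and 0.25, where Gpx4 and Gpx8 were not. Sod1 and Sod3 differed from these: their highest arrays were KO replicate 2, by 0.16 and 0.22, and HET replicate 1, by 0.037 and 0.16. On KO replicate 2, Sod2 was at its lowest, -0.28. Sod2, Gpx1 and Prdx3 thus shared HET replicates 2 and 3 as high arrays, and Sod1 and Sod3 shared HET replicate 1 and KO replicate 2.

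HET replicate 1 and KO replicate 2 also had the lowest array weights, 0.55 and 0.36, meaning that over all genes they lay farthest from their groups. On KO replicate 2, 57.3% of all genes lay above their own mean, the largest share of any array. The number of members above their own mean was 6 of 9 on HET replicate 2 and 5 of 9 on KO replicate 3, and 1 to 4 on the other arrays. The part that array quality had in these patterns was not tested.

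**Figure D3:**
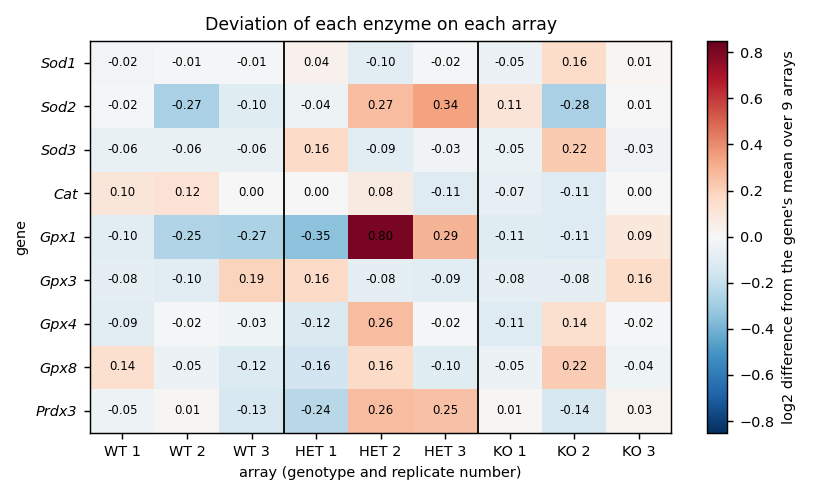
Difference of each enzyme (rows) on each array (columns, by genotype and replicate) from its own mean over the 9 arrays, in log2 units, by colour and number. Gpx1 on HET 2 is the largest, 0.80, and Sod1 and Sod3 are highest on KO 2.

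Genes whose values followed Cat and Gpx1 most closely over the 9 arrays were taken from 17617 genes. For Cat they were Cep128, a centrosome protein (Pearson r = 0.96), the receptor Notch2 (0.95) and Ppp2r5a, a phosphatase subunit (0.95). For Gpx1 they were AY036118 (0.98), the RNA methyltransferase Mettl16 (0.98) and Akr1e1, an aldo-keto reductase (0.97). These are the highest of very many values over few arrays that share genotype and array effects, and are given as a description. Akr1e1, like Gpx1, was lowest on HET replicate 1, at 6.97, and highest on HET replicate 2, at 8.06.

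The genes around these enzymes were read from 8 lists by role. Among 7 other peroxiredoxins and glutathione peroxidases none passed in KO against WT (median -0.098). Prdx4, the peroxiredoxin of the endoplasmic reticulum, lay at -0.23 (SE 0.099), Gpx6 at 0.16 and Gpx7 at -0.11. Of 16 thioredoxin and glutaredoxin genes none passed (median -0.085), with 11 below 0. Among these were glutathione reductase Gsr at -0.24 (SE 0.075) and Txnip, which binds and inhibits thioredoxin, at -0.29 (SE 0.14), while Glrx3 lay at 0.28. The 3 genes of copper delivery to SOD1 did not pass either, with its copper chaperone Ccs at 0.11 (SE 0.090), Atox1 at -0.019 and the copper importer Slc31a1 at -0.0090.

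Selenium supply held 1 gene that fell, out of 9 measured. Selenop, the secreted selenoprotein that carries selenium to other cells, lay at 7.95, 8.01 and 7.73 in WT, 7.72, 7.81 and 7.91 in HET, and 7.29, 7.21 and 7.20 in KO. All KO arrays lay below all others, and WT and HET overlapped. From WT to KO, Selenop fell 1.59-fold (log2 difference -0.67, SE 0.091, limma adjusted p = 0.012). From HET to KO it fell 1.495-fold (-0.58, SE 0.091, adjusted p = 0.041), and HET lay at -0.085 against WT. The selenium-dependent members Gpx1, Gpx3 and Gpx4 did not pass, with KO against WT changes of 0.17, -0.0050 and 0.054. These are RNA levels, and those of Gpx3 may be background. The amount and activity of the proteins, whose synthesis needs selenium, were not measured.

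The KO against WT call of Selenop was lost without WT replicate 1 (limma adjusted p = 0.088), WT replicate 2 (0.079) or KO replicate 3 (0.064), when HET replicate 1 and KO replicate 2 were both dropped (0.057), and when the HET arrays were kept out of the fit (0.066). It held in the other 14 of 19 settings. The KO against HET call was lost in 13 of 19 settings. Among arrays left out singly it held without WT replicate 3 or HET replicate 1, with adjusted p up to 0.22 otherwise. It was also lost with only the compared groups (adjusted p = 0.14), array weights (0.077), median centring (0.075), the Xist level as a covariate (0.083), both low-weight arrays dropped (0.094) or the replicate number as a block (0.12). In the same list, Sephs2, which makes the selenium donor for selenocysteine, lay at 0.34 (SE 0.12) in KO and 0.37 (SE 0.12) in HET against WT, and Lrp8, a receptor of Selenop, at 0.14 in KO. Neither passed.

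Of 8 NRF2 target enzymes, 1 fell. Slc7a11, the cystine importer that feeds glutathione synthesis, lay at 5.98, 5.38 and 5.82 in WT, 5.39, 5.03 and 5.07 in HET, and 4.56, 4.85 and 4.92 in KO. KO lay below every other array, and HET overlapped WT through HET replicate 1 and WT replicate 2. From WT to KO it fell by a measured 1.93-fold (log2 difference -0.95, SE 0.16, limma adjusted p = 0.038). On KO replicate 1 the value of 4.56 lay below that array's lower quartile of 4.58, so the KO values may be near background and the size of the fall is uncertain. HET lay at -0.56 against WT (SE 0.16, adjusted p = 0.99) and KO at -0.39 against HET (SE 0.16, adjusted p = 0.78). The KO against WT call held without WT replicate 2 or HET replicate 1. It was lost without any other array (adjusted p 0.069 to 0.19), when HET replicate 1 and KO replicate 2 were both dropped (0.10), and when the HET arrays were kept out of the fit (0.15). Slc7a11 was also among the dim genes that the filter left out.

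The rest of that list did not pass, with Nqo1, a quinone reductase, at -0.38 (SE 0.12) and Gstm1 at -0.23 (SE 0.10) in KO against WT. On KO replicates 1 and 3 Nqo1, at 4.40 and 4.33, lay below those arrays' lower quartiles of 4.58 and 4.57, so its KO values may be near background. The list's median was -0.24, with 6 of 8 below 0. Among 12 regulators none passed. Nfe2l2, which encodes NRF2 itself, lay at -0.44 (SE 0.12) in KO and -0.39 (SE 0.12) in HET against WT. Neither genotype overlapped WT, as for 9.98% (KO) and 6.85% (HET) of all genes. Ppargc1a lay at -0.38 and Bach1, which represses NRF2 targets, at 0.13 in KO. Of the 12, 2 had all KO arrays below all WT arrays, beside 4.34% of all genes. For 1, Bach1, all lay above, beside 5.63%. Sod1, whose promoter window holds the NRF2 core, lay at 0.055 as given above.

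**Figure D4:**
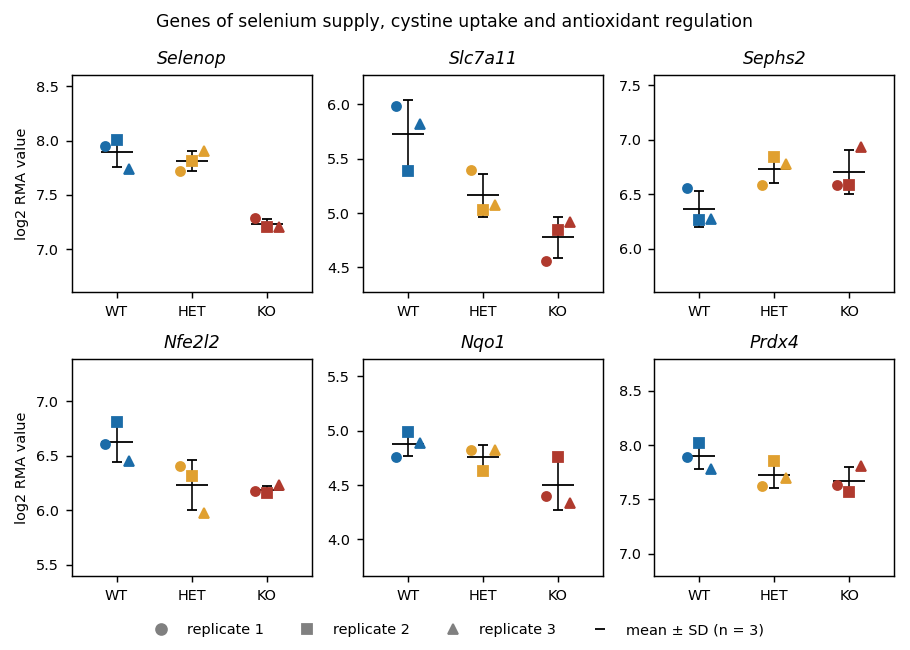
Log2 RMA value of 6 genes around the enzymes (vertical axes, each spanning 2 log2 units) on the WT, HET and KO arrays, with the mean ± SD of 3 arrays as black bars. Selenop in KO, 7.20 to 7.29, lies below all WT and HET arrays, and the mean of Slc7a11 steps down from WT through HET to KO.

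Sources of superoxide and hydrogen peroxide held 15 measured genes, of which none passed in KO against WT (median 0.0026). Nox3, an NADPH oxidase, lay at 0.24 (SE 0.095), Cyba, a membrane subunit of these oxidases, at -0.15 (SE 0.087) and Ncf4 at -0.11. Nox3 in WT and HET, at 4.36 to 4.44, and Ncf4 on every array, at 4.01 to 4.29, lay below the lower quartiles. These values may be background. Of 18 peroxisome genes, which belong to the organelle that holds catalase, none passed (median -0.024). Hsd17b4, an enzyme of peroxisomal fatty acid oxidation, lay at -0.33 (SE 0.13), Abcd3 at -0.17 and Pex10 at 0.10. In HET against WT no gene of the 8 lists passed, and in KO against HET Selenop alone did.

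Summed marker levels of 3 of the 10 cell types listed were lower in KO beside the fall of Selenop and Slc7a11, though few single markers passed. The summed log2 level of 8 astrocyte markers was 59.24 to 60.57 in WT, 58.30 to 60.90 in HET and 56.37 to 57.54 in KO. In KO against WT 1 of these 8 passed, the water channel gene Aqp4 (-1.02, SE 0.17, limma adjusted p = 0.033), and 6 lay below 0. The sum of 8 ependymal markers was 45.40 to 46.00 in WT, 44.21 to 45.56 in HET and 40.80 to 42.93 in KO, with all 8 below 0 in KO against WT (median -0.34) and 0 of 8 passing (smallest limma adjusted p = 0.054). In KO against HET all 8 were below 0 as well, and 1 of 8 passed, Rsph4a (-1.19, limma adjusted p = 0.044). The sum of 8 meningeal and fibroblast markers was 47.16 to 47.80 in WT, 46.34 to 47.91 in HET and 45.03 to 46.81 in KO. In KO against WT 1 of these 8 passed, the matrix protein gene Ogn (-1.37, SE 0.19, limma adjusted p = 0.012), 3 lay above 0 and the median was -0.082. Without Ogn the meningeal sums overlapped, at 40.69 to 40.85 in WT and 40.05 to 41.30 in KO, and those of astrocytes without Aqp4 did not, at 52.35 to 53.32 and 50.70 to 51.32. The astrocyte markers left that differed most were Gja1, at 7.62 to 7.88 in WT and 6.47 to 7.08 in KO, and Slc1a2, at 8.78 to 9.13 and 8.29 to 8.42. Neither passed in KO against WT. In KO against HET Gja1 was the 1 of 8 astrocyte markers that passed (-1.35, limma adjusted p = 0.041), and 3 lay above 0. Of the 8 meningeal markers 0 passed in KO against HET. Aldh1l1 went the other way without overlap, at 7.18 to 7.51 in WT and 7.56 to 7.68 in KO, so the list did not fall as a whole. The sum of 8 choroid plexus markers was higher in KO, at 42.77 to 43.80, than in WT, at 42.27 to 42.36, with HET between 41.49 and 44.34. Of these, 1 of 8 rose, the clotting factor gene F5 (0.89, SE 0.10, limma adjusted p = 0.0051), 4 lay below 0, and without F5 the sums overlapped, at 37.84 to 38.01 in WT and 37.38 to 38.47 in KO. Lum, a meningeal marker, and Clic6, a choroid plexus marker, were below the lower quartile on every array, and no marker of the astrocyte or ependymal list was. The ependymal marker Cfap126 was below it on every array but WT replicate 1, at 4.30, 4.44 and 4.32 in KO. The astrocyte marker Gfap was below it on HET replicate 3 and KO replicate 3, at 4.42 and 4.52. These values may be background. The part of these 4 cell types in the fall of Selenop and Slc7a11 was not tested. Of 11 red blood cell markers 4 were measured, so blood, which is rich in catalase and peroxidases, could be followed only in part. Their sum was 21.35 to 21.48 in WT, 20.42 to 21.08 in HET and 20.81 to 21.44 in KO, so HET lay below WT without overlap. Epb42 was below the lower quartile on every array, and Hbb-y on every array but WT replicate 2 and KO replicate 3. The values of these markers may be background.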

How the data were processed

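The file that the authors deposited holds log2 values of 28940 probe sets, 1 column per array. Per the submitters' processing notes, the tools were affy, RMA and limma, with no version named. RMA subtracts background, brings the arrays to a common distribution and summarises each probe set. The probe set annotation of that summary was not used here, nor were detection calls. From the array annotation supplied, 21789 probe sets had 1 symbol and were used, 1621 had several and 5530 none.

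All 9 arrays entered 1 limma 3.58.1 model (R 4.3.3, lmFit and eBayes, two-sided tests) with a mean per genotype. The p-values were adjusted over 19938 genes by Benjamini-Hochberg, and the model was tested on simulated data. Intervals are 95% per gene, unadjusted, and the number of arrays limits the precision. The members, gene lists and tests were chosen with earlier results of these data known. Named genes were the members, up to 3 genes per list that ranked first by unadjusted p in KO against WT, any called gene of a list, Prdm16, and the 3 genes most like each of Cat (smallest unadjusted p) and Gpx1 (largest SD). Predicted and clone genes were passed over there by name only (prefixes Gm, LOC, Olfr, BC and AI, ending Rik). AY036118, which has none of these, was kept.

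As alternatives, the replicate number was added as a block, the fit was limited to the compared groups, the variance prior was given a trend and made robust, arrays were weighted, the dimmest 33.3% of genes were left out, probe sets of a gene were averaged, values were quantile normalized or median centred, the Xist level was added as a covariate, HET replicate 1 and KO replicate 2 were dropped together, and each array was dropped in turn. Applying them to Selenop, Slc7a11, Prdm16 and the other named genes of the lists, and summing markers without a list's called gene, were chosen after seeing the data.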

Additional observations from a re-analysis of the deposited data

How the results depend on the processing

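No member passed in any of the 19 other settings, in any of the 3 comparisons (0 of 507 values). Of the 27 changes of a member in a comparison, 13 kept their sign in all settings, among them those of Cat and of Gpx1 in all 3 comparisons. The settings share most of their arrays, and the share of all genes that kept their sign was not counted. Prdm16 itself passed in KO against WT (-1.38, limma adjusted p = 0.010) and kept that call in 16 of 19 settings. It did not pass in KO against HET (-1.02, limma adjusted p = 0.078), where 2 of 19 settings called it. In HET against WT it lay at -0.36 (limma adjusted p = 0.99) and passed in 0 of 19. None of the 22 other named genes of the lists passed in any setting. Of these, Gpx6, Ccs, Nqo1, Nox3, Ncf4 and Pex10 were among the dim genes that the filter left out. The count of all genes called in KO against WT, 90, was 33 with only the compared groups, 151 when arrays were weighted and 50 when HET replicate 1 and KO replicate 2 were both dropped. It was 23 to 77 with 1 array left out. In KO against HET, 41 genes passed, 9 higher and 32 lower. The count was 8 with only the compared groups and 24 with the Xist level as a covariate. It was 21 with median centring (7 higher, 14 lower) and 50 with quantile normalization (16 higher, 34 lower). With 1 array left out it was 12 to 75, the highest without HET replicate 1 (10 higher, 65 lower), and without KO replicate 2 it was 19 (9 higher, 10 lower). The cause was not tested. HET against WT had 0 calls in every setting.

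With the replicate number as a block, KO against HET had 19 calls and KO against WT 72. Same-numbered arrays did not deviate together, with r over genes from -0.34 to 0.055 and 0 of 9 pairs over 0.1. Of the 9 arrays, 0 were closest to one with their own number. HET replicate 1 and KO replicate 2, the arrays with the lowest weights, had r = 0.31. Deviations of such arrays enter this check, so it cannot decide whether same-numbered arrays share a litter or batch. The labels do not say, and a shared litter or batch was not tested. With that block the adjusted p by limma of Selenop was 0.12 in KO against HET, and that of Slc7a11 0.065 in KO against WT.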
